A study of Homo sapiens and Mus musculus with 10 samples.

Results

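The genes described here are 10 members of the Notch pathway as it is measured in HEK293T cells: the receptors NOTCH1, NOTCH2 and NOTCH3, the ligands JAG1, JAG2 and DLL1, and the target genes HES1, HES4, HES5 and HEY1. They were taken by symbol, as the rows of the 2 HEK293T count tables that carry these names, out of 16619 symbols in the tables together. The stress-set table held 9 of them in its 16120 rows, and the genotype-set table held all 10 in its 11976 rows. JAG2 is not analysed in the stress set here. Each symbol had 1 transcript row in a table, and for the 9 members in both tables that row was the same transcript.

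The study sequenced ribosomal RNA-depleted RNA from stressed human HEK293T cells and mouse N2a cells, in 10 libraries of which 7 are HEK293T. HEK293T is an established human embryonic kidney line that carries the SV40 large T antigen. The stress set had 1 library each of WT cells deprived of glucose for 24 h (GD), WT cells given 300 nM thapsigargin for 6 h (TG) and WT mock cells. The genotype set had 1 library each of UFD1s-deficient cells under GD for 24 h, UFD1s-deficient mock cells, WT cells under GD for 24 h and WT mock cells. Thapsigargin is an inhibitor of SERCA, which pumps calcium into the endoplasmic reticulum (ER), and so stresses that organelle. The labels do not say how the UFD1s-deficient line was made, whether it is 1 clone, or if separate cultures were used for the libraries. Each treatment of a genotype has 1 library in a set, so the spread between repeats within a set was not measured. The error in the main fits is how far the GD change differed between sets or genotypes, which may be technical in part. The test used (edgeR) also shares that error over transcripts, so a p-value is not the measured spread between repeat libraries.

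Notch signalling passes between touching cells. A ligand of the Jagged or Delta-like family on one cell pulls on a Notch receptor on its neighbour, the receptor is cut by ADAM proteases and then by gamma-secretase, and the freed intracellular domain enters the nucleus, where it joins the DNA-binding protein RBPJ and a Mastermind coactivator. The best known targets are the HES and HEY genes, whose products are basic helix-loop-helix repressors that hold back proneural genes and keep progenitors undifferentiated; the pathway also patterns the developing kidney and its nephrons.

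The tables gave 11461365 to 19024327 reads per HEK293T library. The stress-set and genotype-set tables list different rows and were scaled separately, by the trimmed mean of M values (TMM), so a level set across them carries that limit. UFD1 had 0 reads under GD, 0 under TG and 10 in mock in the stress set, on another transcript than in the genotype set, where it had 193 reads in deficient GD, 199 in deficient mock, 107 in WT GD and 168 in WT mock. Neither row is stated to cover what the deficient line lacks, so the genotype labels are not checked by them. Of 7 listed HEK293T markers, VIM, a mesenchymal filament gene that HEK293T cells express, had 11447 to 16304 reads, and the neurofilament gene NEFL had 1146 to 3445. The others were low. KRT8 had 0 to 2 reads in the stress set and 28 to 77 in the genotype set, and KRT18 had 8 to 37. NEFM (4 to 8 reads) and EYA1 (10 to 26) were analysed in the stress set alone, and PAX2 is not analysed here. None of 3 blood markers had a row, and the summed level of liver markers reached 0.408 CPM at most (CPM, reads scaled to library size). Endothelial markers summed to 2.78 to 6.79 CPM, mostly VWF, and skeletal muscle markers to 6.02 to 12.2 CPM, mostly MYH3. Of 4 fibroblast markers, COL1A1 and LUM carried the reads and COL1A2 and DCN had almost none or no row; their summed level was 15.5 to 35.2 CPM in the 3 GD libraries and 31.5 to 70.7 CPM in the 3 mock libraries, with 24.2 CPM under TG. The nuclear-retained RNAs MALAT1, NEAT1 and KCNQ1OT1 summed to 26800 to 41400 CPM in the GD libraries and 17100 to 20800 CPM in the mock libraries, with 20000 CPM under TG. In the stress set the ribosomal precursor RNA45SN5 held 10.7% of reads under GD, 8.31% under TG and 7.73% in mock, and it was not analysed in the genotype set. The part of these shifts in the results that follow was not tested.

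Under glucose deprivation the receptor genes NOTCH1 and NOTCH3 and the target gene HES5 fell and the ligand gene JAG1 rose, in a joint test over the 6 HEK293T mock and GD libraries. NOTCH3 and HES5 had the widest differences, at −1.70 ± 0.329 and −2.65 ± 0.785 (log2 GD minus mock ± SE, edgeR). Here and below the SE is worked back from the test, as the size of the difference over the square root of its F statistic. These 4 of the 9 members tested passed an adjusted p of 0.05, against 20.9% of all 10363 transcripts tested; 1 was higher, where 9.75% of all were, and 3 were lower, where 11.1% were. The median log2 difference of the 9 members was −0.24, beside −0.02 over all transcripts. In bulk RNA, fewer cells that express a gene and less of its RNA per cell cannot be told apart. Of the transcripts called, 46.7% were higher in GD, a share that was 30.9% when libraries were scaled by their totals alone; the 4 members called were the same under that scaling. The members' calls depended on the libraries used. Without the stress-set mock or the stress-set GD library 6 members were called (NOTCH1, NOTCH3, DLL1, HES4 and HES5 lower, JAG1 higher), with 36.7% and 39.0% of all transcripts. Without the genotype-set WT mock or WT GD library only NOTCH3 was, with 11.5% and 11.1% of all transcripts. Without the deficient mock or the deficient GD library none was, with 4.91% and 4.76% of all transcripts, and in WT cells alone 0 members and 4.74% of transcripts were called. Leaving out either library of a pair removes the GD change of that pair, so both refits of a pair rest on the same remaining pairs. They are not separate checks, and those without a deficient library match WT cells alone. Over these left-out libraries the log2 difference ran from −2.32 to −1.24 for NOTCH3, −3.78 to −1.63 for HES5, −0.58 to −0.39 for NOTCH1 and 0.35 to 0.64 for JAG1.

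**Figure D1:**
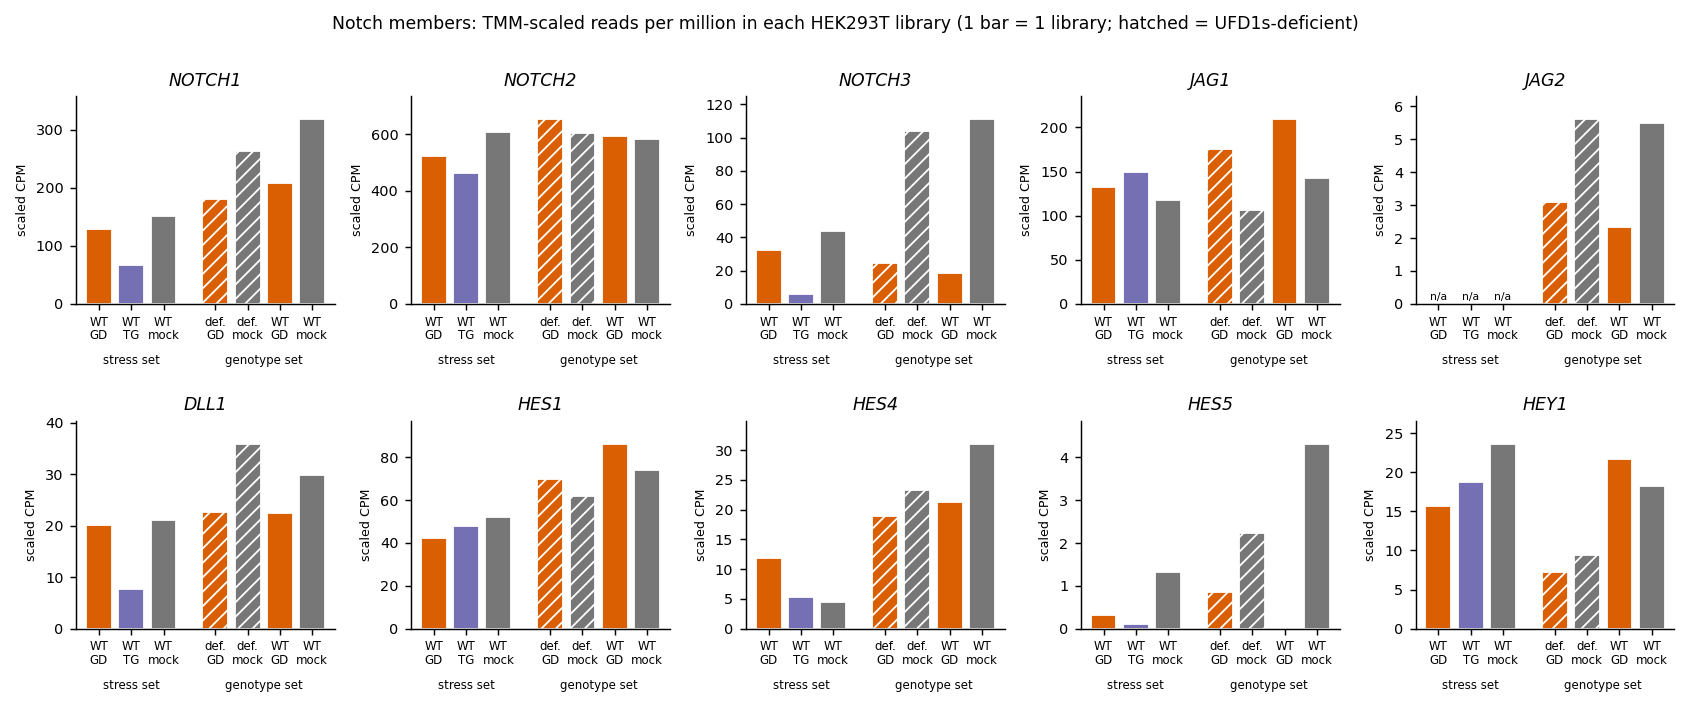
TMM-scaled CPM (vertical axes from 0, each with its own scale) of the 10 members in the 7 HEK293T libraries, 1 bar per library, with the stress set at the left and the genotype set at the right of each panel and UFD1s-deficient libraries hatched; n/a marks JAG2 where it was not analysed. NOTCH3 stood at 18.3 and 24.7 CPM in the GD libraries of the genotype set and at 111 and 104 CPM in its mock libraries, and HEY1 was lowest in both deficient libraries.

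Among members, the level per length differed widely in mock cells. Given per kilobase of transcript, the scaled CPM had a median over mock libraries of 53.1 for NOTCH2, 39.1 for HES1, 28.3 for NOTCH1, 25.9 for HES4, 19.9 for JAG1, 12 for NOTCH3, 9.38 for DLL1, 7.99 for HEY1, 1.71 for HES5 and 0.95 for JAG2. NOTCH2 was above HES1 in every mock library, at 51.1 to 53.4 against 33.0 to 46.9 CPM per kilobase. HES1 was likewise above NOTCH1 in each of the 3 mock libraries, though their ranges over libraries overlap. NOTCH1 and HES4, HES4 and JAG1, NOTCH3 and DLL1, and DLL1 and HEY1 changed order between mock libraries and so did not differ beyond their spread. JAG1, at 17.8 to 24.0, was above NOTCH3, at 5.06 to 12.8, and HEY1, at 4.10 to 10.3, was above HES5 in every mock library. HES5 and JAG2, with at most 3.30 and 0.959 CPM per kilobase in mock cells, were the lowest, JAG2 being measured in 2 mock libraries. HES4 was the member whose WT mock libraries differed most between the sets, with 4.99 CPM per kilobase in the stress set and 34.5 in the genotype set.

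NOTCH3, a receptor best known from the smooth muscle of small arteries, had 401 reads under GD against 792 in mock in the stress set. In the genotype set it had 288 reads in deficient GD against 1389 in deficient mock, and 204 reads in WT GD against 1421 in WT mock. The GD library was the lower of the pair in 3 of 3 pairs, and the GD and mock libraries did not overlap in CPM (18.3 to 32.7 against 43.8 to 111). Those ranges pool sets that were scaled separately, and the share of all transcripts that separate in this way was not counted. The ratio of scaled reads was 1.34-fold lower in the stress set (95% counting interval 1.19 to 1.51), 4.19-fold lower in deficient cells (3.69 to 4.77) and 6.07-fold lower in WT cells of the genotype set (5.24 to 7.07). Such intervals cover counting error only. The joint difference of −1.70 had an adjusted p of 0.00766 by edgeR. It was not alike in both sets: the GD change in the genotype set was lower than that of the stress set by a log2 difference of −1.88 ± 0.21 (adjusted p 3.85e-06, edgeR interaction term), where 10.5% of all transcripts differed by set. That term rests on 1 stress-set pair and 1 residual degree of freedom, so its p-value leans on the error shared over transcripts. The sets cannot be told apart from whatever else differed between them.

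NOTCH1, the receptor with the widest known role in progenitors and blood, had 1578 reads under GD against 2737 in mock in the stress set. It had 2106 in deficient GD against 3524 in deficient mock, and 2311 in WT GD against 4060 in WT mock. GD was lower in 3 of 3 pairs, by 1.18-fold (1.10 to 1.25) in the stress set, 1.45-fold (1.38 to 1.53) in deficient cells and 1.53-fold (1.46 to 1.61) in WT cells of the genotype set. CPM ranged over 129 to 208 in the GD libraries and 151 to 318 in the mock libraries and so overlapped between sets, while within each set every GD library was below every mock library. The joint log2 difference was −0.47 ± 0.0968 (adjusted p 0.01002, edgeR). The set difference of −0.33 ± 0.109 missed the threshold at an adjusted p of 0.0604, and passed it when libraries were scaled by RLE size factors (0.0331) or by totals alone (0.0349), alternatives chosen after seeing the data.

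NOTCH2, a receptor required for the proximal nephron, was the most abundant member per length in mock cells. It had 6424 reads under GD against 10993 in mock in the stress set, 7603 against 8108 in deficient cells and 6623 against 7424 in WT cells of the genotype set. Scaled to depth, GD stood at 0.862 of mock (0.836 to 0.889) in the stress set, at 1.08 of mock (1.05 to 1.11) in deficient cells and at 1.02 of mock (0.99 to 1.06) in WT cells of the genotype set. The joint difference was −0.03 ± 0.0952 (adjusted p 0.855, edgeR), and the difference by set was 0.30 ± 0.0876 (adjusted p 0.0286). NOTCH2 has near-identical partial copies, the NOTCH2NL genes, and the counting rule for reads that fit several genes is not given in the sources used here, so its reads may include theirs.

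Under thapsigargin NOTCH1 and NOTCH3 were lower as well, in the single TG library. NOTCH3 had 115 reads (6.17 CPM) under TG against 792 reads (43.8 CPM) in mock, 7.11-fold lower (5.84 to 8.72), and NOTCH1 had 1249 reads against 2737, 2.26-fold lower (2.11 to 2.42). NOTCH2 had 8649 reads against 10993, 1.31-fold lower (1.28 to 1.35). With 1 library a condition there is no test, and a member was counted as changed when its log2 CPM (prior count 5) differed by at least 2-fold and the higher library had 50 reads or more. By that rule 3 of the 8 members with enough reads changed under TG, NOTCH1, NOTCH3 and DLL1, all lower, against 8.04% of transcripts. The median log2 ratio of the 9 members under TG was −0.39, beside 0.01 over all transcripts. GD of the stress set shares its mock library with TG, and by the same rule 1 of 8 members changed there, HES4, which was higher, against 7.3% of transcripts.

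Set directly against GD of the stress set, which ran for 24 h where TG ran for 6 h, TG was 5.31-fold lower for NOTCH3 (4.30 to 6.59), 2.64-fold lower for DLL1 (2.14 to 3.27) and 2.19-fold lower for HES4 (1.69 to 2.86). These were 3 of 8 members, against 8.57% of transcripts. NOTCH1 was 1.92-fold lower (1.78 to 2.07), within the bound. Agent and time differ together in this pair and cannot be told apart.

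**Figure D2:**
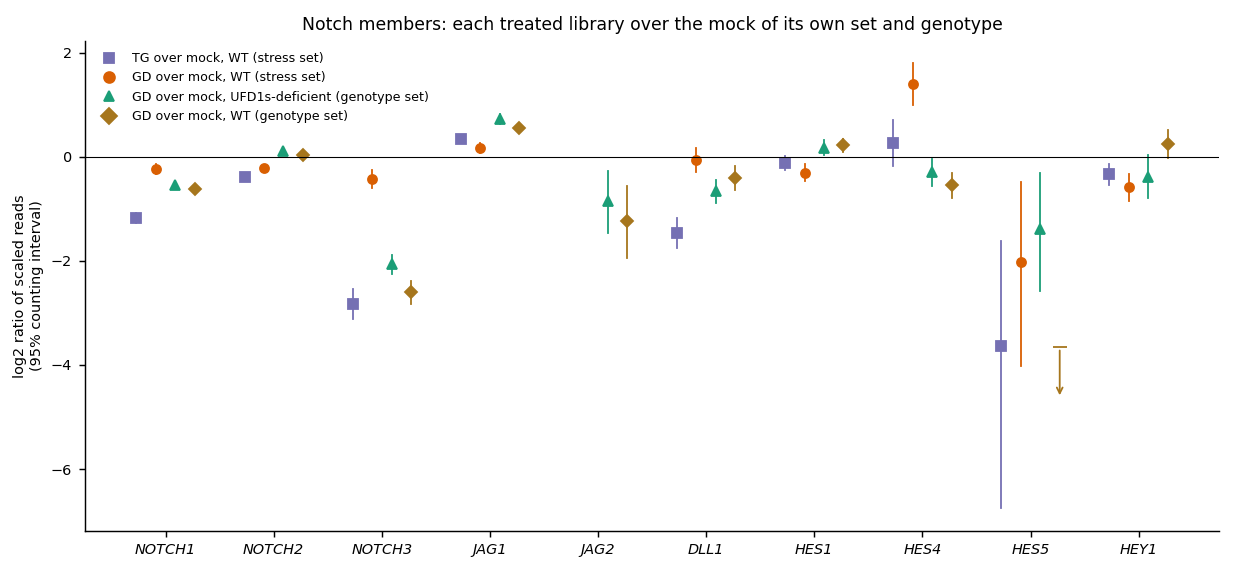
Log2 ratio of scaled reads of each treated library over the mock library of its own set and genotype (vertical axis), for the 10 members, with 95% exact counting intervals as bars; 1 library per condition and pair. NOTCH1, NOTCH3, DLL1 and HES5 lie below 0 in all 4 ratios and JAG1 above 0 in all 4. HES4 is above 0 in both stress-set ratios and below 0 in both genotype-set ratios. The intervals of DLL1 under GD of the stress set and of HES4 under TG span 0. The arrow starts at the upper interval limit of HES5 in WT GD of the genotype set, with 0 reads.

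JAG1, a Jagged ligand and itself a known Notch target in some tissues, was the member that rose under GD. It had 1630 reads under GD against 2140 in mock in the stress set, where the mock library was deeper. It had 2036 in deficient GD against 1416 in deficient mock, and 2330 in WT GD against 1822 in WT mock. After scaling, the GD library was higher in 3 of 3 pairs, at 1.12 times mock (1.05 to 1.20) in the stress set, at 1.66 times mock (1.55 to 1.77) in deficient cells and at 1.47 times mock (1.38 to 1.56) in WT cells of the genotype set. CPM overlapped between the groups, at 133 to 209 in GD and 106 to 143 in mock. The joint log2 difference was 0.48 ± 0.115 (adjusted p 0.01885, edgeR) and was larger in the genotype set by 0.49 ± 0.122 (adjusted p 0.01196). Under TG it had 2795 reads, 1.27 times mock (1.20 to 1.34) after scaling.

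DLL1, a Delta-like ligand expressed by committed neighbours of progenitors, had 246 reads under GD against 379 in mock in the stress set, 263 against 480 in deficient cells and 250 against 380 in WT cells of the genotype set. GD was lower in 3 of 3 pairs, with the stress-set ratio at 0.957 of mock (0.812 to 1.13), but the joint log2 difference of −0.39 ± 0.155 did not pass (adjusted p 0.108, edgeR). Under TG it had 142 reads, 2.76-fold below mock (2.27 to 3.37).

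JAG2, a Jagged ligand that was the least abundant member per length in mock cells, could be tested in the genotype set alone. It had 36 reads in deficient GD against 75 in deficient mock, and 26 reads in WT GD against 70 in WT mock. GD was lower in both genotypes, by 1.81-fold (1.20 to 2.77) in deficient cells and 2.35-fold (1.48 to 3.84) in WT cells. In the 4 libraries of that set the log2 difference was −1.03 ± 0.352 (adjusted p 0.0291, edgeR), which DESeq2 did not call (adjusted p 0.195).

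In that 4-library fit, 7 of 10 members passed, against 32.9% of 11975 transcripts. JAG1 was higher, at 0.64 ± 0.0701, and 6 were lower: NOTCH1 at −0.58 ± 0.0602, NOTCH3 at −2.32 ± 0.12, JAG2, DLL1 at −0.54 ± 0.142 (adjusted p 0.00598), HES4 at −0.43 ± 0.152 (adjusted p 0.0356) and HES5 at −2.88 ± 0.759 (adjusted p 0.00585). This fit has 1 residual degree of freedom. DESeq2 called 3 of the 9 members it gave an adjusted p, NOTCH1, NOTCH3 and JAG1, against 22.2% of transcripts. By the 2-fold rule on single pairs, NOTCH3, JAG2 and HES5 were lower in WT GD, 3 of 10 members against 6.81% of transcripts, and NOTCH3 was lower in deficient GD, 1 of 9 against 6.31%.

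The 4 target genes encode related repressors and did not move together. The promoters of the HES members are printed because the short core that RBPJ binds, TGGGAA, is found in each of them and in none of the NOTCH1, NOTCH2, NOTCH3, JAG1 and JAG2 promoters searched. They run from 250 bases before to 50 bases after the annotated start, 5′ to 3′ on the gene's strand, from RefSeq on GRCh38.p14, with TGGGAA, or its reverse complement TTCCCA, in capitals. HES1 lies at chr3:194135898-194136197 on the plus strand, HES4 at chr1:1000048-1000347 on the minus strand and HES5 at chr1:2530214-2530513 on the minus strand.
HES1: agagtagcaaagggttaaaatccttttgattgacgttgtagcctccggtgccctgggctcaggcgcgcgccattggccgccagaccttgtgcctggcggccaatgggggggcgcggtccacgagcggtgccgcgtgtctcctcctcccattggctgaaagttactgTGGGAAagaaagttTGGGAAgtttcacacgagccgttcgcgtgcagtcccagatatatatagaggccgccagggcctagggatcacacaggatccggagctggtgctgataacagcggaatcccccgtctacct
HES4: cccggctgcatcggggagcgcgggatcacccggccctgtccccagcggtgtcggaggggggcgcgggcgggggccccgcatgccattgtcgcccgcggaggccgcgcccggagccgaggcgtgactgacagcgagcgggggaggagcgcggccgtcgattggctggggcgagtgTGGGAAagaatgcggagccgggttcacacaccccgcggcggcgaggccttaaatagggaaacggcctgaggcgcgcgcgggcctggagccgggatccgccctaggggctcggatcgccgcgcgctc
HES5: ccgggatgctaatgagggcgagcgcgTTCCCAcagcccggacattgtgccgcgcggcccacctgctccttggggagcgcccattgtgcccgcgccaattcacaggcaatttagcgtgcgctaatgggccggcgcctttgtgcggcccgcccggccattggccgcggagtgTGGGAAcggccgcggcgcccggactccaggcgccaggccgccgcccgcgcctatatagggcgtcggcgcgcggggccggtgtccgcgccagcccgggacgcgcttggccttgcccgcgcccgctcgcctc
The core begins 84 and 70 bases before the start in HES1, 76 bases before it in HES4 and 80 bases before it in HES5, which has a second match on the opposite strand 224 bases before the start. A promoter table row was matched for 8 of the 10 members, with DLL1 and HEY1 the exceptions. That table places NOTCH2 on chromosome 1 with HES4 and HES5, NOTCH1 on 9, NOTCH3 on 19, JAG1 on 20, JAG2 on 14 and HES1 on 3. On either strand, 24.0% of the 35116 promoters in the table hold TGGGAA. The longer site CGTGGGAA (0.826% of promoters), the ER stress response element known as ERSE (0.0769%) and the composite site TGATGNAA bound by CHOP with ATF4 (3.62%) had no match in the 8 windows. The longer site was searched with C as its first base only. With T as that base it can be read in the printed promoters, at the core 84 bases before the start in HES1. The same holds for the core of HES4 and for both matches in HES5. The share of all promoters with that form was not counted. The N box CACNAG, a site for HES repressors, is in 38.0% of promoters and in those of NOTCH1, NOTCH2, NOTCH3 and HES1. A match describes the letters only.

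HES5, a target that marks neural progenitors, was at few reads throughout. It had 4 reads under GD and 2 under TG against 24 in mock in the stress set. It had 10 reads in deficient GD against 30 in deficient mock, and 0 reads in WT GD against 55 in WT mock. Each treated library was below its own mock, in 3 of 3 GD pairs and in the TG pair, and GD and mock did not overlap in CPM (0 to 0.859 against 1.33 to 4.31). Here too the sets were scaled separately and the share of all transcripts that separate so was not counted. GD was 4.07-fold lower in the stress set (1.40 to 16.1), 2.61-fold lower in deficient cells (1.24 to 5.97) and, with 0 reads, at least 16-fold lower in WT cells of the genotype set, against a floor of 3 counts in that library; its exact 95% interval, which also counts the error of the mock library, ends at 12.6-fold. The TG ratio was 12.4-fold lower, with a counting interval of 3.08 to 108. The joint log2 difference of −2.65 had an adjusted p of 0.0407 (edgeR) and depends on the prior count, since a library is at 0; DESeq2 gave no adjusted p for it, and requiring a row mean of 50 reads removes it from the test.

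HES4, a family member that human cells have and mice lack, went opposite ways in the sets. It had 144 reads (11.8 CPM) under GD and 100 reads (5.36 CPM) under TG against 81 reads (4.48 CPM) in mock in the stress set. In the genotype set it had 220 reads (18.9 CPM) in deficient GD against 312 (23.3 CPM) in deficient mock, and 236 (21.2 CPM) in WT GD against 396 (31.0 CPM) in WT mock. GD was 2.62 times mock (1.98 to 3.49) in the stress set and was 1.23-fold (1.03 to 1.47) and 1.46-fold (1.24 to 1.73) lower in deficient and WT cells of the genotype set. The joint difference of 0.09 ± 0.311 did not pass (adjusted p 0.862, edgeR), and the GD change differed by set by −1.80 ± 0.32 (adjusted p 0.000762). All 3 stress-set libraries lay below all 4 genotype-set libraries.

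HES1, the most widely expressed target, had 517 reads under GD and 897 under TG against 941 in mock in the stress set. It had 811 in deficient GD against 827 in deficient mock, and 958 in WT GD against 945 in WT mock. After scaling it stood at 0.81 of mock (0.726 to 0.903) under GD and at 0.923 of mock (0.842 to 1.01) under TG in the stress set, and at 1.13 (1.02 to 1.25) and 1.16 (1.06 to 1.27) of mock under GD in deficient and WT cells of the genotype set. The joint difference was 0.03 ± 0.126 (adjusted p 0.905, edgeR). Its difference by set was 0.52 ± 0.166, with an adjusted p of 0.0506, and passed under RLE size factors (0.0424) and library totals (0.0283).

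HEY1, a target known from blood vessels and the heart, had 192 reads under GD and 348 under TG against 426 in mock in the stress set. It had 84 in deficient GD against 126 in deficient mock, and 242 in WT GD against 234 in WT mock. The GD change was not called (−0.24 ± 0.199, adjusted p 0.421, edgeR), being lower in 2 pairs and higher in WT cells of the genotype set, at 1.19 times mock (0.987 to 1.43). Across the tables, which were scaled separately, both deficient libraries (7.22 CPM under GD and 9.40 CPM in mock) were below all 5 WT libraries (15.7 to 23.6 CPM), TG included. Within the genotype set the WT libraries were at 21.7 CPM under GD and 18.3 CPM in mock. The share of all transcripts that separate so was not counted.

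UFD1s-deficient cells were set against WT in the same fit, over the 2 deficient and 2 WT libraries of the genotype set. HEY1 was the 1 of 9 members that passed, against 1.03% of all transcripts, and it was lower in deficient cells, by a log2 difference of −1.29 ± 0.25 with an adjusted p of 0.04997 (edgeR). It was 3.01-fold lower in the GD pair (2.34 to 3.91) and 1.95-fold lower in the mock pair (1.56 to 2.44). The call sits at the threshold: it was lost under RLE size factors (adjusted p 0.0532) and under library totals (0.0609). It was also lost without the deficient mock, the deficient GD or the genotype-set WT GD library. DESeq2 kept it (0.0034), and it stayed with no filter and without the genotype-set WT mock library. It also stayed without either stress-set library, but the deficient minus WT difference is set by the genotype-set libraries. Those 2 refits change the error and hardly the difference (−1.26 in both), so they do not check it. Without the stress-set mock or GD library NOTCH1, JAG1 and HES1 were called lower in deficient cells too, with 16% and 18.7% of all transcripts. By the 2-fold rule HEY1 was the 1 of 8 members that changed under GD, against 2.8% of transcripts, and 0 of 10 changed in mock, against 2.69%.

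The authors' deposited table gives its own log2 values for deficient over WT, from 1 library each, so its p-values compare those libraries and not the conditions. In the authors' deposited table HEY1 is at −1.59 under GD (p 0.00052) and −0.975 in mock (p 0.028). In the authors' deposited table HES5 is at 3.46 under GD (p 0.00417), resting on 10 reads in deficient GD against 0 in WT GD, and at −0.954 in mock (p 0.074). The other 8 members have p-values of 0.282 or more there.

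**Figure D3:**
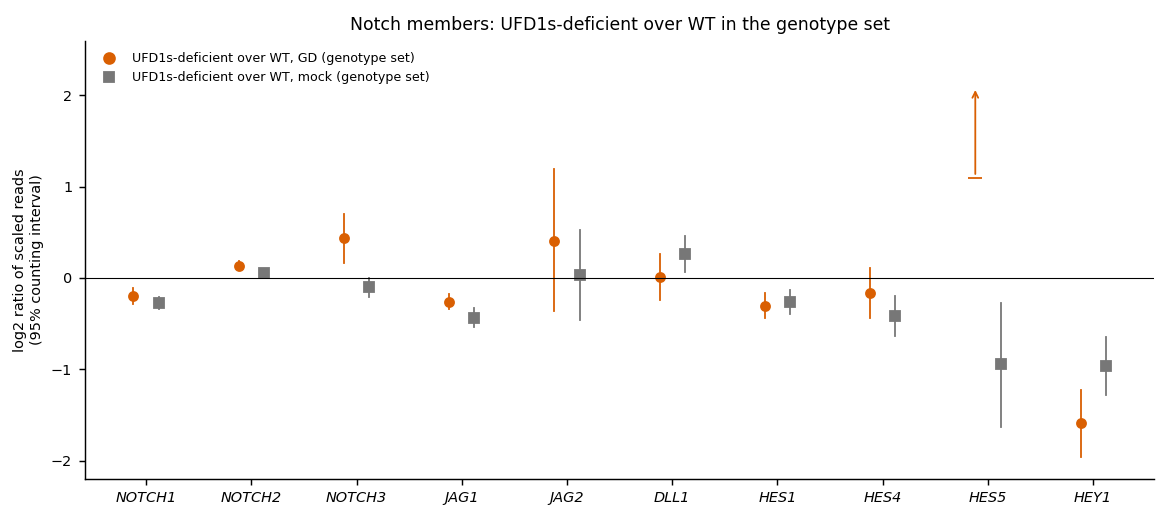
Log2 ratio of scaled reads, UFD1s-deficient over WT (vertical axis), under GD and in mock in the genotype set, for the 10 members, with 95% exact counting intervals; 1 library per condition. HEY1 lies below 0 in both (3.01-fold lower under GD and 1.95-fold lower in mock), and the arrow starts at the lower interval limit of HES5 under GD, with 10 reads in deficient cells and 0 in WT cells.

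Whether GD acted differently in deficient cells was tested by an interaction term. By edgeR 0 of 9 members and 0 of 10363 transcripts (0%) passed, and 122 transcripts, none of them a member, had an unadjusted p under 0.05. HES5 had the largest interaction estimate of the members, 2.41 ± 1.62 (adjusted p 0.9998), and NOTCH3 had −0.57 ± 0.682. The term sets the deficient pair against WT pairs of both sets, so the difference between sets enters it. Within the genotype set alone the direction is the opposite for NOTCH3, whose log2 ratio was −2.05 in deficient and −2.58 in WT cells, and for HES4, at −0.29 in deficient and −0.54 in WT cells, where the term was −0.63 ± 0.657. It is also the opposite, by little, for NOTCH1 (−0.54 in deficient and −0.61 in WT cells, term −0.10 ± 0.261). The same holds for HES1 (0.17 in deficient and 0.22 in WT cells, term 0.22 ± 0.308). These values do not show that the genotypes respond alike.

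The other pathway genes were described through lists that follow the pathway from the membrane to the nucleus. Of 79 listed genes 51 could be tested, 7 rose and 7 fell under GD, against 20.9% of all transcripts that passed in either direction, 9.75% higher and 11.1% lower, the background for each list that follows. Their median log2 difference was −0.02, as over all transcripts. In the genotype test 0 of the 51 passed, against 1.03% of all transcripts.

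Receptor processing held 2 of 7 genes that rose, where 9.75% of all transcripts did, and 0 that fell. Lists this short give counts only. NCSTN, the gamma-secretase subunit nicastrin, was at 0.59 ± 0.0892 (adjusted p 0.00258, edgeR), and ADAM17, a protease of the first cut, was at 0.31 ± 0.0897 (adjusted p 0.0386). Of the 3 receptor glycosylation genes tested, RFNG, a Fringe enzyme that tunes which ligand a receptor answers, rose by 0.68 ± 0.16 (adjusted p 0.0166). Among 9 genes of ligand and receptor endocytosis and turnover 2 fell: NEURL1B, a ubiquitin ligase for ligands, at −1.26 ± 0.269 (adjusted p 0.0115), and DTX4, a Deltex ligase, at −0.61 ± 0.135 (adjusted p 0.0133). NEURL1B had 96 reads under GD and 55 under TG against 239 in mock in the stress set.

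In the nucleus, MAML3, a Mastermind coactivator, was the 1 of 7 activator genes that changed, and it fell, at −0.66 ± 0.157 (adjusted p 0.0178, edgeR). RBPJ was counted on different transcripts in the 2 tables, with 2 to 14 reads in the stress set and 95 to 112 in the genotype set, and was not tested. Among 11 corepressor genes, CTBP2 (1.12 ± 0.274) and CIR1 (0.48 ± 0.138) rose and the histone deacetylase gene HDAC1 fell (−0.53 ± 0.085). Of 7 other HES, HEY and partner genes, ID4, an inhibitor of helix-loop-helix factors, rose by 0.57 ± 0.127 (adjusted p 0.0142).

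Of 5 other Notch targets tested, 3 fell and 1 rose, beside 11.1% and 9.75% of all transcripts. NRARP, a feedback inhibitor of the receptor's intracellular domain, had 2445 reads under GD against 4834 in mock in the stress set. It had 1795 in deficient GD against 3760 in deficient mock, and 2791 in WT GD against 5242 in WT mock. Its log2 difference was −0.67 ± 0.0995 (adjusted p 0.0024, edgeR), and its deficient minus WT difference of −0.62 missed the threshold (adjusted p 0.0511). CCND1, which encodes cyclin D1, was at −0.88 ± 0.11 and SOX9 at −0.65 ± 0.143, while MYC was at 0.45 ± 0.131. These genes have many regulators besides Notch.

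Of 5 neural progenitor genes tested, 3 fell under GD, beside 11.1% of all transcripts: SOX3 at −2.17 ± 0.259, the filament gene NES at −1.16 ± 0.199 and SOX2 at −0.78 ± 0.15 (adjusted p 0.000933, 0.00449 and 0.00738, edgeR). The same 3 were at least 2-fold lower in the TG library, SOX2 with 112 reads against 456 in mock, and OLIG2 was higher, with 261 reads against 71. The proneural genes could not be tested, since 4 of 8 had a row in the stress set and none in the genotype set. Under TG 1 of the 46 pathway genes with enough reads was higher, CTBP2, and 3 were lower, NEURL1B, MAML3 and SOX9, a share near the 8.04% of all transcripts.

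**Figure D4:**
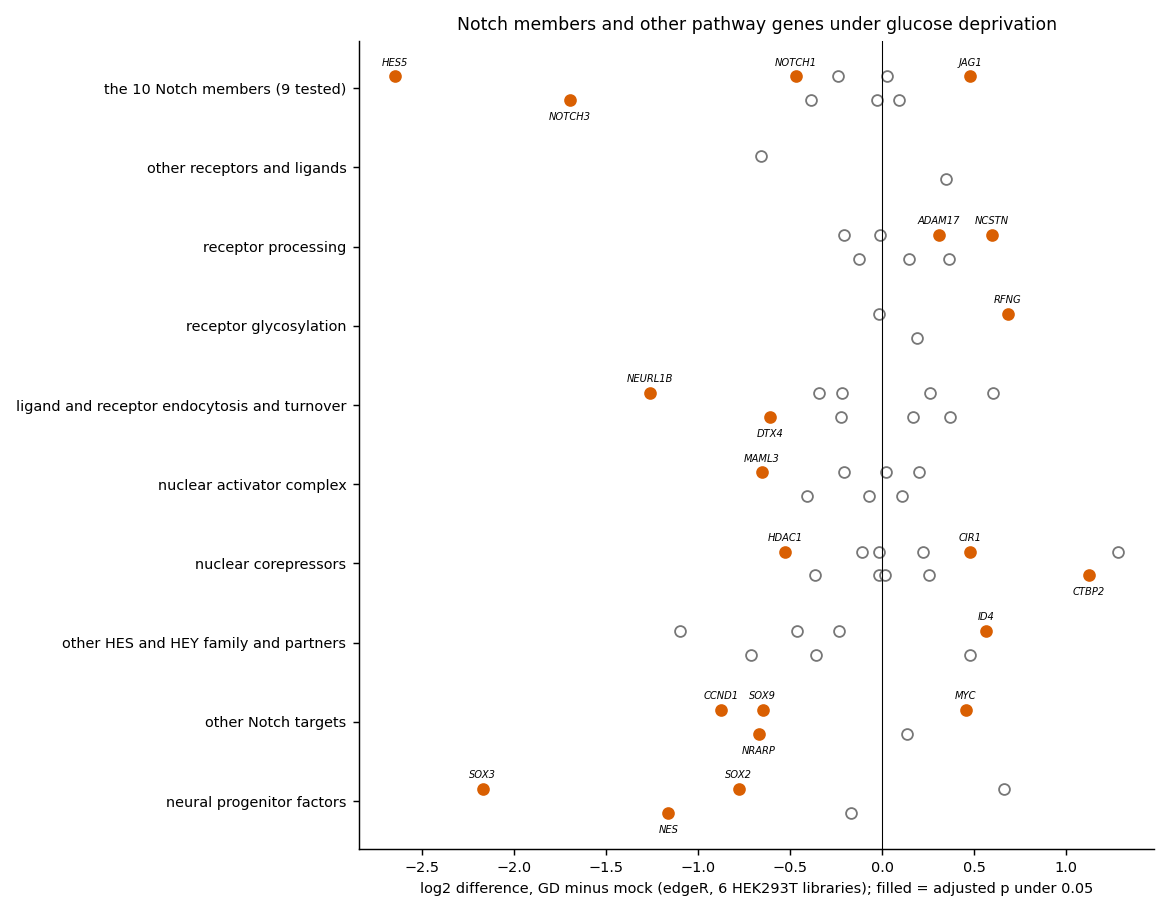
Log2 difference, GD minus mock (horizontal axis), from the edgeR fit over 6 HEK293T libraries, for the 9 members tested and for the genes of 9 lists, 1 point per gene; filled points have an adjusted p under 0.05 and carry the gene's symbol. Of the members 4 are filled, of the 51 pathway genes 14, and of 5 neural progenitor genes 3, these lying to the left of 0.

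Transcripts whose pattern was most like that of a member that was called were found from 4 log2 ratios to own mock (GD and TG of the stress set, WT GD and deficient GD of the genotype set), among 10353 transcripts with at least 100 reads over the 7 libraries. Likeness was the Euclidean distance of those ratios, taken with a prior count of 5. For NOTCH3 the nearest were MYCN at 0.545, NYNRIN at 0.922 and TRERF1 at 0.982, and MYCN had ratios of −0.35, −2.52, −2.27 and −1.68 in that order. For HES5 they were TMEM35A at 0.394, NRTN at 1.01 and PDGFRA at 1.20. For NOTCH1 they were EEPD1, MAST3 and TPTEP1, at 0.295 to 0.307, and for JAG1 PCBP1-AS1, CD5 and ARRDC3-AS1, at 0.074 to 0.125. These ratios share mock libraries, and the distances describe 4 points each.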

How the data were processed

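RNA from 7 HEK293T libraries was used; the N2a table pairs no symbols with its rows and was not used. The deposited tables hold the authors' read counts per transcript, not normalized, with the authors' log2 fold changes and p-values for deficient over WT in the genotype set, per the file headers. Bowtie2 and bedtools, cutadapt and FastQC, and the builds hg19 and mm10 are listed, per the submitters' processing notes. How reads were counted, and whether by strand, is not stated in the sources used. TruSeq Ribo Profile libraries were made, per the labels' protocols.

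The tables were joined on transcript (10368 shared) and tested with edgeR 4.0.16 in R 4.3.3: quasi-likelihood, TMM factors, filterByExpr by treatment, set, genotype and treatment as terms, 2 residual degrees of freedom, Benjamini-Hochberg adjustment over 10363 transcripts. Set is a term because each GD library has the mock of its own set: WT libraries differed more between sets (chi-square per degree of freedom 73.8 in mock and 89.7 in GD) than the genotypes did within one (17.0 and 17.7). Single pairs were given as ratios with exact conditional 95% intervals. DESeq2 1.42.0, other scalings, filters and left-out libraries were alternatives. The scripts were tested on simulated counts. Lengths per kilobase come from GENCODE transcripts, and promoters from RefSeq on GRCh38.p14, which is not the authors' build.

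All 10 members are named. Of the listed pathway genes, those called are named, up to 4 a list, with the 3 nearest transcripts of each called member. Members and lists were chosen with earlier results of these data known.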

Additional observations from a re-analysis of the deposited data

Results flagged for a closer look

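The GD change differed between the genotype set and the stress set, by the edgeR interaction term, for 4 members: by 0.30 for NOTCH2, −1.88 for NOTCH3, 0.49 for JAG1 and −1.80 for HES4 (log2, genotype set minus stress set). These are 4 of 9 members, against 10.5% of all transcripts. Under RLE size factors or library totals there were 6, NOTCH1 and HES1 being added, against 12.4% and 14.1%. For 3 members the GD library lay on opposite sides of its mock in the sets, in every pair. That count rests on signs alone, and the share of all transcripts with such signs was not counted. HES4 had a log2 ratio of scaled reads of −0.30 in deficient and −0.55 in WT cells of the genotype set, and 1.39 in the stress set. NOTCH2 had 0.11 and 0.03 in the genotype set, and −0.21 in the stress set; in WT cells of the genotype set its interval of −0.015 to 0.081 spans 0, and under library totals that ratio turned to −0.05. HES1 had 0.18 and 0.22 in the genotype set, and −0.30 in the stress set; its interaction missed the threshold at an adjusted p of 0.0506 and passed it under RLE size factors (0.0424) and library totals (0.0283). The stress set gives 1 pair, so the difference between sets has no replicate of its own, and what differed between the sets was not tested.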

How the results depend on the processing

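The 4 members called under GD remained 4 under RLE size factors, library totals, no filter and matching by symbol, with 17.9% to 21.3% of all transcripts. They were 3 with DESeq2 (20.7%) or a row mean of 50 reads (25.3%). They were 0 with no replicate block (set left out of the fit, 0.232% of all transcripts) and 0 in WT cells alone (4.74%). When 1 library was left out they were 0 to 6, with 4.76% to 39% of all transcripts. The genotype call of HEY1 was lost under RLE size factors, library totals, a row mean of 50 reads, matching by symbol and no replicate block. That left 0 members in each, with 0% to 1.14% of all transcripts. When 1 WT library was left out, 0 to 4 members were called, with 0.955% to 18.7% of all transcripts. In the genotype set alone DESeq2 called 3 members, with 22.2% of all transcripts, against 7 with edgeR, with 32.9%.

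By the rule of size, 2 members changed under GD in the stress set with a bound of 20 reads, beside 9.98% of transcripts. In deficient GD there were 2 with 20 reads (7.35%) and 4 with a 1.5-fold bound (20.7%), and for deficient over WT in mock there were 2 with a 1.5-fold bound (11.3%).

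Over all transcripts, the GD calls ran from 493 to 4039 without 1 library, against 2163, and were 24 with no replicate block, 490 in WT alone and 4040 in the genotype set alone. The genotype calls ran from 5 to 1938, against 107, with 222 by DESeq2 and 0 with no replicate block. Of the genotype-set GD calls, 36.1% were higher under library totals, against 49.1%, and DESeq2 made 2143 calls, against 3934.

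Signs turned only for members that were not called. Under GD, HES1 was at −0.052 with library totals and −0.0487 in WT alone. HES4 was at −0.14 with no replicate block and at −0.43, called, in the genotype set alone. NOTCH2 was at 0.0743 in the genotype set alone, and in that set's own fit at −0.0038 with library totals. For deficient minus WT with no replicate block, NOTCH1 was at 0.0706 and HES4 at 0.26. Without 1 library, the GD difference ran from −0.0703 to 0.20 for HES1, −0.43 to 0.48 for HES4 and −0.10 to 0.0743 for NOTCH2. The genotype difference ran from −0.75 to 0.27 for HES4, −0.84 to 6.29 for HES5, −0.44 to 0.92 for NOTCH3, −0.0743 to 0.35 for DLL1 and −0.0101 to 0.20 for NOTCH2. Causes were not tested. Leaving out libraries of the genotype-set fit was not run, as no residual degree of freedom is left, and no RNA45SN5 row is shared by the tables. HES5 and JAG2, with at most 55 and 75 reads, are limited by depth.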
